A study of Mus musculus with 10 samples.

Results

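To follow inflammatory signalling during reprogramming with C6FAE, 10 genes for cytokines and acute inflammatory proteins were taken by name from a table of 23197 genes in single cells. The genes are *Il6*, *Il11*, *Lif*, *Il33*, *Tslp*, *Csf1*, *Ptgs2*, *Ptges*, *Saa3* and *Lcn2*, and all 10 had UMIs (unique molecular identifiers, tags that mark single RNA molecules). The cells were mouse embryonic fibroblasts (MEFs) before treatment (day 0, d0) and on 9 later days under a cocktail of CHIR99021, RepSox, Forskolin, AM580 and EPZ004777, which leads part of the fibroblasts to cells like extraembryonic endoderm (XEN-like cells). CHIR99021 inhibits GSK3, RepSox inhibits ALK5, Forskolin raises cAMP, AM580 activates retinoic acid receptors and EPZ004777 inhibits Dot1l. Cells of d8c and d12c came from colonies picked on day 8 and day 12, and those taken as day 6 are named d6p, with a p that the labels do not explain. The treatment text of the labels gives 12 days in reprogramming medium and does not describe the culture to day 20. No sex, genotype or number of embryos was used here.

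Interleukin 6, interleukin 11 and leukemia inhibitory factor signal through a shared receptor chain, gp130, to STAT3, and fibroblasts are a known source of all of them. IL-33 and TSLP are alarmins, which barrier and stromal cells release to alert immune cells, and CSF1 keeps macrophages alive. *Ptgs2* encodes cyclooxygenase 2 and *Ptges* the microsomal prostaglandin E synthase, which act in succession to make prostaglandin E2. *Saa3* (serum amyloid A3) and *Lcn2* (lipocalin 2) encode acute phase proteins that tissue cells make in inflammation. NF-kB, AP-1, C/EBP factors and, for some of these genes, the cAMP-responsive factor CREB are known to act on their promoters.

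Of the 808 cells, those with 4000 or more detected genes entered, 670 in all, from 20 cells at d8c to 86 at day 6. They held between 17633 and 6004864 UMIs each, with group medians from 195480 at d20 to 1055206 at d2. The 10 sequenced batches could not be told from the cell names, so the table counts as 1 sample without replicates, no difference between days has a replicate check, and no p-value was computed. Intervals are at 95%, exact Poisson for UMIs and Clopper-Pearson for shares of cells, and cover counting error only. Levels are CPM (the UMIs of a gene, scaled to the same total in every cell, without spike-in RNAs), averaged over cells. Differences are those of mean log2(CPM + 1), computed for genes whose mean reached 1 in one of both groups and called past 1 in size. The sum of 10 fibroblast markers had a mean of 3932 CPM in the starting cells and 72.1 CPM at d20. It was higher than at d0 at day 6 (10740 CPM), d8 (17340 CPM) and d12 (12800 CPM). All 10 fibroblast markers were detected in every group but d20, so neither detection nor a high sum marks the starting cells. The sum of 10 XEN markers had a mean of 67.6 CPM at d0 and 1517 CPM at d20. Of 9 XEN markers compared, 6 were called higher at d20 than at d12, against 20.5% of all genes. Of 11 immune cell markers, 8 had no UMI at d12, among them *Ptprc*, *Adgre1*, *Itgam* and *Tyrobp*, and their sum is given with the gene lists.

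Promoters of *Il6*, *Ptgs2* and *Saa3* are shown because these genes had their highest mean in the unpicked day 12 cells and their control by inflammatory factors is well described. Each run gives the 250 bases before the start of transcription, 5′ to 3′, on the strand of the gene, from RefSeq on GRCm38.p6. This build differs from the mm9 build of the counts, and the coordinates of the promoters hold for GRCm38.p6 only. They are chr5:30012864-30013113 for *Il6* on the plus strand, chr1:150099781-150100030 for *Ptgs2* on the plus strand and chr7:46715677-46715926 for *Saa3* on the minus strand. Capitals mark matches to the motifs searched.

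Il6: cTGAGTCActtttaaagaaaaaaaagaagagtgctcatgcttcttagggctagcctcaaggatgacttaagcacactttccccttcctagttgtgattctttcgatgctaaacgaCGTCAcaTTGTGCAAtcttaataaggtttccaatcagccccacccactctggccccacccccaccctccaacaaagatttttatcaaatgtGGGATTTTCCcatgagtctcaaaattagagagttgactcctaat

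Ptgs2: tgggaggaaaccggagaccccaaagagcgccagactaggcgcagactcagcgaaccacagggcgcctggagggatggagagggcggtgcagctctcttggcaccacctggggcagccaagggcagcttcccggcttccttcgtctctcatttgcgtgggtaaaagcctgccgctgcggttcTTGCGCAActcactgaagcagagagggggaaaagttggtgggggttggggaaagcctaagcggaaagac

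Saa3: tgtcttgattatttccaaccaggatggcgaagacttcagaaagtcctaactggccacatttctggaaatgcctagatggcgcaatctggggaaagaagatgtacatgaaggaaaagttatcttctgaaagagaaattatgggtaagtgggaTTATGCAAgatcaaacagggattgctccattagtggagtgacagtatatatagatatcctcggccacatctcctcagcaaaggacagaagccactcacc

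The search covered AP-1 (TGANTCA), NF-kB, C/EBP (TTGCNNAA), the cAMP response element (CRE, TGACGTCA), its half-site TGACG, which the CRE contains, and TATAAA, on both strands. Of 32851 promoters of this length, 6.75% held the AP-1 motif, 4.64% the NF-kB motif, 9.56% the C/EBP motif, 1.55% the CRE, 17.8% the half-site and 12.4% TATAAA. The *Il6* promoter held 4 matches, AP-1 from 249 to 243 bases before the start, the half-site as CGTCA from 135 to 131, C/EBP as TTGTGCAA from 128 to 121 and NF-kB as GGGATTTTCC from 44 to 35. *Ptgs2* held a C/EBP match (TTGCGCAA, 69 to 62 bases before the start), and *Saa3* held 1 as TTATGCAA, 99 to 92 bases before it. Of 9 genes with an entry in the table, *Lcn2* and *Il33* also matched C/EBP, *Csf1* NF-kB, *Il11* and *Lif* AP-1 and *Il33* TATAAA, whereas *Ptges* matched none of the 6 motifs. These 9 genes had 11 entries, since *Il11* and *Il33* had more than 1, while the shares above are per entry. AP-1 of *Il11* and C/EBP of *Il33* lay in only 1 of their entries, and TATAAA of *Il33* in both. All matches are of letters and not measured binding.

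Over the 12 groups, the mean level was highest in unpicked d12 cells for 7 of the 10 genes, *Il6*, *Il11*, *Lif*, *Csf1*, *Ptgs2*, *Ptges* and *Saa3*. *Il33* was highest at d1, *Tslp* at d0 and *Lcn2* at d8c. *Ptges* had a first maximum at d1, and *Csf1* was high at d0, low from d1 to d8 and high again at d12.

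**Figure D1:**
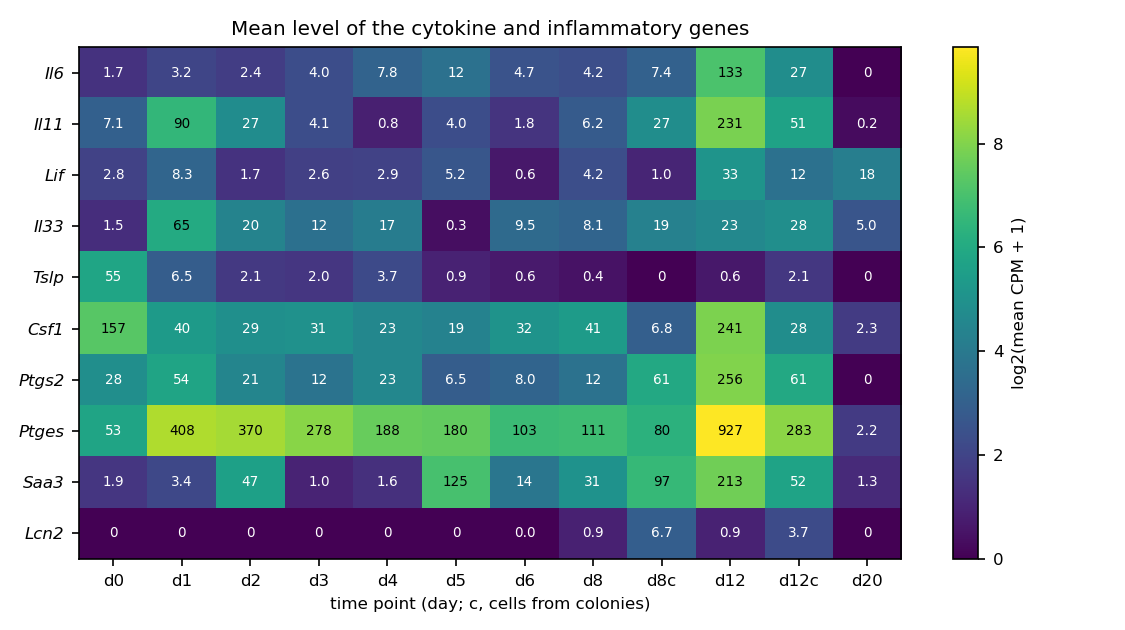
Heat map of the mean level of the 10 genes in 12 groups of cells; rows are genes, columns are time points (c, cells from colonies), the colour is log2 of the mean CPM + 1, and the printed numbers are mean CPM. The d12 column is the brightest for 7 genes, and *Tslp* is brightest at d0.

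The enzymes of prostaglandin synthesis are taken first. *Ptges* (chromosome 2, 30744991 to 30785383, minus strand, mm9, as for all positions of genes) ran from 0 to 211 CPM over 72 d0 cells with a median of 42.7, from 28.0 to 909 CPM at d1 with a median of 364, and from 80.1 to 3052 CPM at d12 with a median of 772. Its mean went from 408 CPM at d1 through 370 (d2), 278 (d3), 188 (d4) and 180 (d5) to 103 at day 6, was 111 at d8 and reached 927 at d12. Levels of single cells overlapped between d1 and d12 but the medians stood apart. At d20, 3 of 38 cells held a *Ptges* UMI and the mean was 2.18 CPM.

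*Ptgs2* (chromosome 1, 151947254 to 151955140, plus strand) had a mean of 28.0 CPM at d0, 53.8 at d1, 12.2 at d8 and 256 at d12. Over the 67 d12 cells it ran from 2.25 to 1261 CPM with a median of 139.5, and over 62 d8 cells from 0 to 254 CPM with a median of 2.92. At d12, 36 of 67 cells reached 100 CPM (53.7%, interval 41.1% to 66.0%), against 2 of 62 at d8 (3.23%, 0.393% to 11.2%). No d20 cell held a UMI, which allows a share of up to 7.89%. Against the floor of 3 counts over the d20 UMIs, the pooled *Ptgs2* level of these d20 cells was at least 746-fold below that at d12. This bound covers counting error only and not the spread between cells.

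Of the ligands of gp130, *Il11* (chromosome 7, 4724669 to 4734460, minus strand) had a rise on the first day and a second one at d12. Its mean went from 7.11 CPM at d0 to 90.3 at d1 and 26.9 at d2, then lay between 0.842 and 6.20 CPM from d3 to d8 and reached 231 CPM at d12. The d1 cells were uneven, with a median of 10.9 and a highest cell of 525 CPM, and 9 of 40 reached 100 CPM. At d12 the median was 39.0 and the highest cell 2316 CPM, and 26 of 67 cells reached 100 CPM (38.8%, 27.1% to 51.5%). At d20 only 2 UMIs were counted, both in 1 cell.

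*Il6* (chromosome 5, 30339701 to 30346508, plus strand) differed from *Il11* in that it stayed low on the first day, with means of 1.71 CPM at d0 and 3.20 at d1. Its mean lay between 2.4 and 12 CPM from d2 to d8c and was 133 CPM at d12 (9798 UMIs, 9605 to 9994). At d12 the lowest cell held no UMI, the median was 13.6 CPM and the highest cell 3414 CPM. This cell gave 38.3% of the sum over cells, and the mean without it was 83.3 CPM. Cells at 100 CPM or more were 18 of 67 at d12 (26.9%, 16.8% to 39.1%) and 0 of 62 at d8, which allows up to 4.84%. At d20, 0 of 38 cells held a UMI. The pooled d12 level was at least 508-fold above the floor there, a bound for counting error only.

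*Lif* (chromosome 11, 4157560 to 4172517, plus strand) had a smaller difference at d12 and was the only one of these ligands found in more than 1 d20 cell. Its mean was 2.85 CPM at d0, 8.32 at d1, 4.17 at d8, 33.4 at d12 and 17.7 at d20. The highest d12 cell held 248 CPM and the median was 5.89. At d20, 17 of 38 cells held a *Lif* UMI (44.7%, 28.6% to 61.7%), and the highest cell held 160.5 CPM. After thinning every cell to 50000 UMIs, *Lif* was found in 36.1% of d20 cells, 45.5% of d12 cells and 8.47% of d8 cells.

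*Csf1* (chromosome 3, 107543966 to 107563387, minus strand) was a gene of the starting fibroblasts. At d0 it was found in 66 of 72 cells with a median of 87.6 and a mean of 157 CPM, and 31 cells reached 100 CPM. The mean was 40.1 CPM at d1, lowest between d1 and d8 at d5 with 19.5, and 241 CPM at d12, where the cells ran from 8.67 to 1851 CPM with a median of 136. The share of cells at 100 CPM or more was 55.2% at d12 (42.6% to 67.4%) and 43.1% at d0 (31.4% to 55.3%), so these shares overlapped within counting error.

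Neither alarmin had its highest mean at d12. *Tslp* was highest in untreated cells, with a mean of 55.0 CPM at d0, 6.53 at d1, 2.14 at d2 and 0.411 at d8. It was uneven at d0, where 40 of 72 cells lacked it, 8 reached 100 CPM and the highest held 1477 CPM, and without this cell the d0 mean was 35.0 CPM. *Il33* (chromosome 19, 29999604 to 30035194, plus strand) had a mean of 1.45 CPM at d0 and 65.0 at d1, of which the highest cell with 1174 CPM gave 45.1%. Only 4 of 40 d1 cells reached 100 CPM, and the d1 median was 1.20 CPM. At d12 the mean was 23.4 CPM and 3 of 67 cells reached 100 CPM, so no broad rise of *Il33* stood beside that of *Il6* and *Il11*.

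The acute phase genes were carried by rare cells. *Saa3* (chromosome 7, 53967368 to 53971046, minus strand) had a mean of 213 CPM at d12, but 1 cell with 9551 CPM gave 67.0% of the sum and the mean without it was 71.2 CPM. Single cells also made the means of other groups, with 3857 CPM at d2, 4431 CPM at d5 and 1912 CPM at d8c in the highest cell, against means without that cell of 0.825, 1.65 and 1.77 CPM. Only 7 of 67 d12 cells reached 100 CPM, while 65 held at least 1 UMI. The middle 50% of d12 cells lay between 11.8 and 19.6 CPM, a much narrower range than for *Il6*, where it ran from 3.90 to 110 CPM. *Lcn2* (chromosome 2, 32240153 to 32243317, minus strand) had no UMI from d0 to d5 and was found in 10 of 62 cells at d8, 3 of 20 at d8c and 8 of 67 at d12, with 190 CPM in its highest cell, at d12c.

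**Figure D2:**
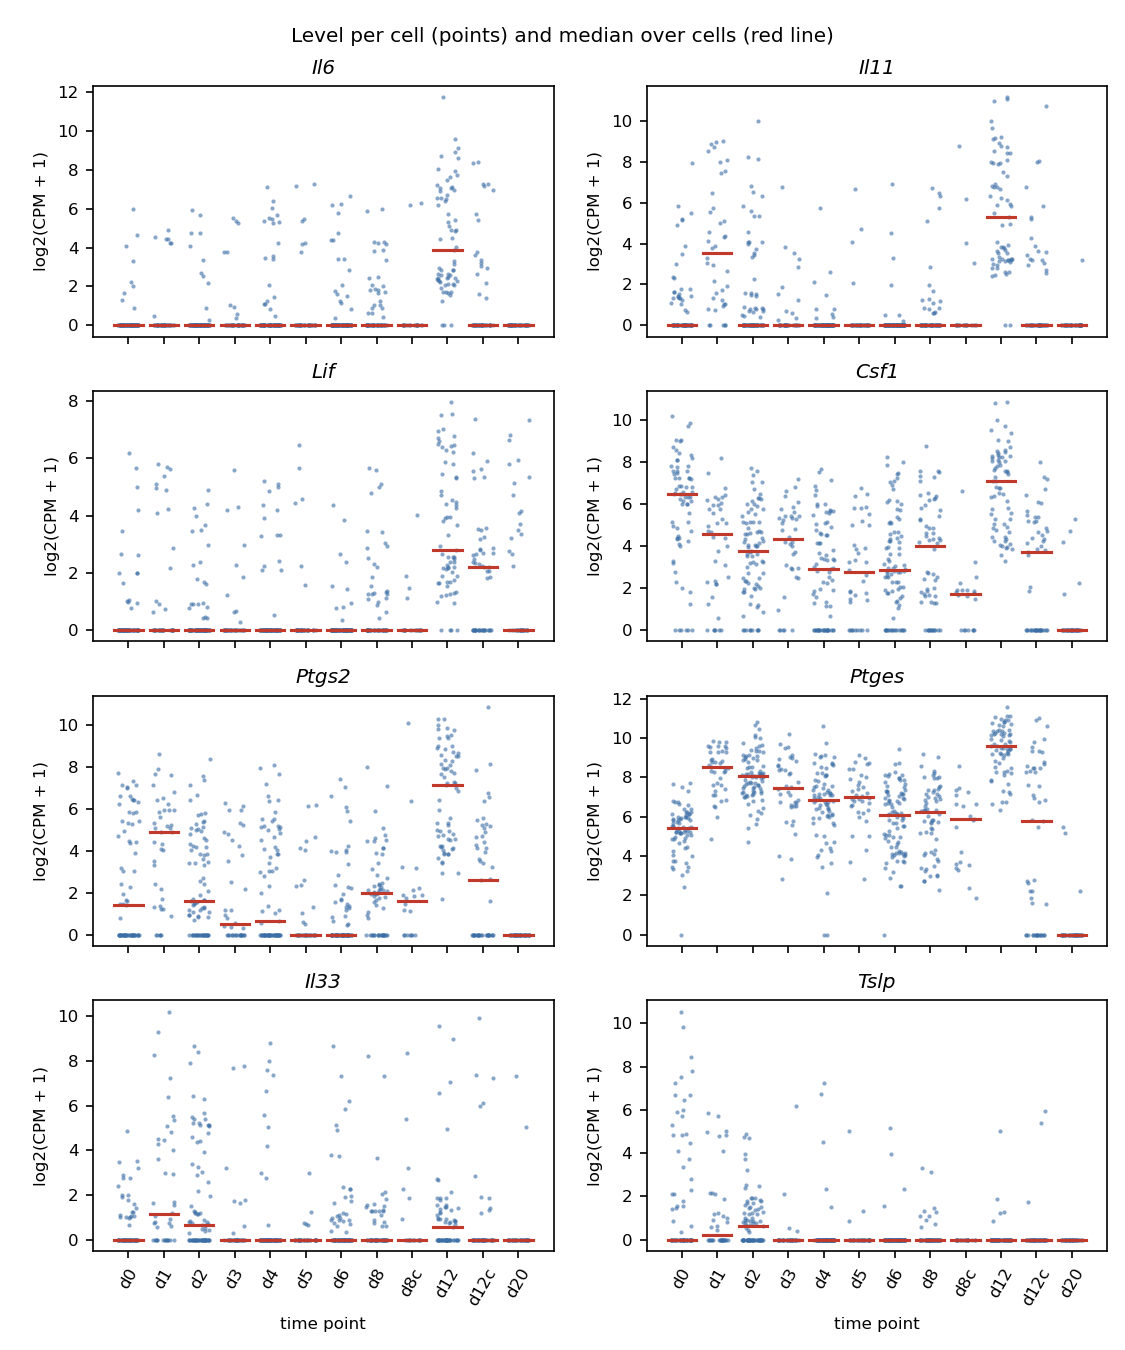
Levels of 8 of the genes in single cells; each point is 1 of the 670 cells at its time point, the vertical axis is log2(CPM + 1), and red lines are medians over cells. The d12 points of *Il6*, *Il11*, *Csf1* and *Ptges* reach the highest levels of their panels, and the highest point of *Ptgs2* is at d12c. *Tslp* has its high points at d0, and *Il33* has few high points at any time.

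To see whether the low *Saa3* values followed the cells' running numbers, d12 and d12c cells were taken in blocks of 24 numbers, a choice made after the values were seen. The *Saa3* median was 17.3, 15.7 and 14.4 CPM in the 3 blocks of d12, in each of which 2 or 3 cells stood over 5 times the median, and the highest cell of the blocks was 1029, 9551 and 825 CPM. In d12c cells numbered 1 to 24 the median was 21.7 CPM with a highest cell of 2090 CPM, and in those numbered 49 to 96 all 30 cells were at 0. Low values in most cells were also found at d1, where no cell reached 100 CPM. There, 18 of 24 and 14 of 16 cells of the blocks held a UMI, and the medians were 1.58 and 1.99 CPM. In these blocks 1 and 3 cells stood over 5 times the median, and the highest cells held 8.61 and 35.4 CPM. The part of RNA from the high cells in the low values was not tested. With this question untested, the counts of cells at 100 CPM or more are given here for the d12 rise, and shares of cells with a UMI are not read as shares of cells that express a gene.

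**Figure D3:**
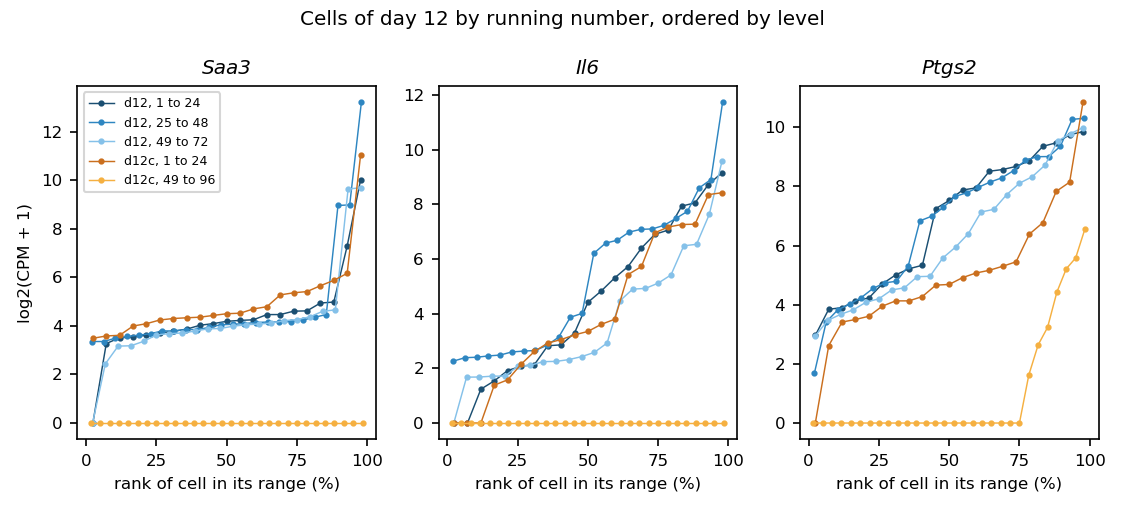
*Saa3*, *Il6* and *Ptgs2* in day 12 cells ordered by level within ranges of running numbers; the horizontal axis is the rank of the cell in its range in percent, the vertical axis is log2(CPM + 1), blue lines are d12 and orange lines d12c. *Saa3* is flat over most cells of 4 ranges and steep in the last few, *Il6* and *Ptgs2* climb gradually, and *Saa3* and *Il6* are at 0 in d12c cells numbered 49 to 96.

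The first day of treatment was asked about with d1 minus d0. Of the 8 genes of the set that could be compared, 4 were higher and 1 was lower past 1, against 23.9% of all genes past 1 in either direction, 19.3% higher and 4.57% lower. The higher ones were *Ptges* (2.99, or 7.73-fold in mean CPM), *Il11* (2.89, 12.7-fold), *Il33* (1.86, 44.7-fold, resting on few cells) and *Ptgs2* (1.67, 1.92-fold). *Csf1* differed by -1.89. *Lif* (0.77), *Saa3* (0.82) and *Tslp* (-0.70) did not pass 1, and *Il6* and *Lcn2* were below the floor for comparison. With a pseudocount of 10, *Il33* (0.96) and *Ptgs2* (0.76) no longer passed 1. With log2 of the mean CPM + 1, in which single high cells weigh most, *Ptgs2* no longer passed 1. *Lif* (2.92-fold higher in mean CPM) and *Tslp* (8.42-fold lower) passed 1 in that setting. The median over the 8 genes was 1.25, against 0.43 over all genes compared.

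Cells of d8 were also set against d0. Of 7 genes compared, *Saa3* was higher (1.12) and *Tslp* (-1.75) and *Csf1* (-2.30) were lower, against 30.8% of all genes past 1, 17.1% higher and 13.7% lower. *Il6* (0.68), *Lif* (0.47), *Ptges* (0.58) and *Ptgs2* (-0.45) did not pass 1, and *Il11*, *Il33* and *Lcn2* were below the floor. With a pseudocount of 10 the difference of *Tslp* was -0.88. The call of *Saa3* was lost with values under 20 CPM set to 0 (0.53), after thinning (0.77), with a pseudocount of 10 (0.44) and in cells numbered 1 to 48 (0.94).

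Unpicked cells of d12 were set against those of d8. Of 8 genes compared, 7 were higher past 1 and none was lower, where 28.8% of all genes passed 1, 14.2% higher and 14.6% lower. The differences were 4.80 for *Il11* (37.3-fold in mean CPM), 4.56 for *Ptgs2* (20.9-fold), 3.52 for *Ptges* (8.34-fold), 3.43 for *Il6* (31.5-fold), 3.25 for *Csf1* (5.84-fold), 2.57 for *Saa3* (6.81-fold) and 2.50 for *Lif* (33.4 against 4.17 CPM). *Il33* differed by 0.42, and *Tslp* and *Lcn2* were below the floor. The median over the 8 genes was 3.33, against -0.13 over all genes compared. A gene can pass the floor through d12 alone, so this count describes the set and is not support for it. With values under 20 CPM set to 0, an alternative chosen after seeing the data, *Saa3* was at 0.97 and no longer past 1, and the other 6 kept their calls.

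The d12 levels were high in both ranges of running numbers. *Ptges* had a mean of 962 CPM in 45 d12 cells numbered 1 to 48 and 857 CPM in 22 cells above 48, *Ptgs2* 280 and 205 CPM, *Csf1* 286 and 151 CPM, *Il11* 278 and 136 CPM, *Il6* 168 and 61.1 CPM, and *Lif* 42.9 and 13.9 CPM. All of these were higher in the lower numbers, and every one of these means lay above the d8 means of both ranges. The median depth of the ranges was 827681 and 613868 UMIs per cell.

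**Figure D4:**
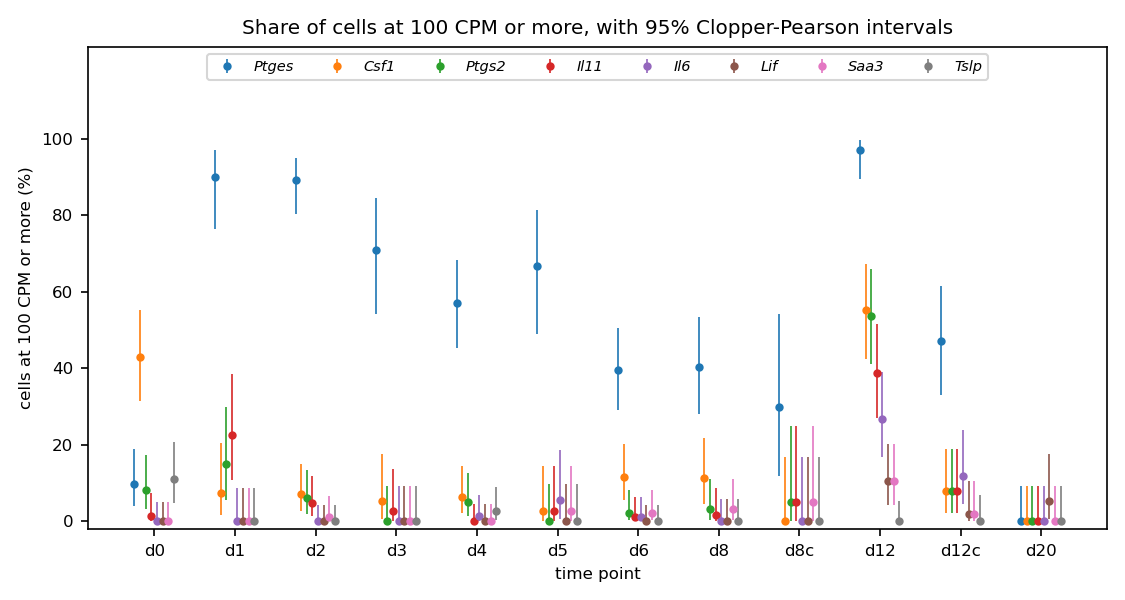
Share of cells at 100 CPM or more for 8 genes at 12 time points; points are percent of cells, bars are 95% Clopper-Pearson intervals, which cover counting error only, and points are shifted sideways for legibility. *Ptges* is above 89% at d1, d2 and d12, and the shares of *Ptgs2*, *Il11* and *Il6* at d12 lie above those at d8.

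Single d12 cells carried several of the genes at high level. Of 67 cells, 55 held at least 2 of the 10 genes at 100 CPM or more, 24 held at least 4, and 1 cell held 7, whereas at d8 6 of 62 cells held 2 and none held more. Leaving *Ptges* aside, 56 d12 cells (83.6%) had at least 1 gene at this level, against 38 of 72 at d0 (52.8%), 18 of 40 at d1 (45.0%), 13 of 62 at d8 (21.0%) and 3 of 38 at d20 (7.89%). Among the 28 pairs of 8 genes, Spearman's rho over the 67 d12 cells ran from -0.15 to 0.47 with a median of 0.21, and 27 pairs were above 0. The highest were *Lif* with *Ptgs2* (0.47), *Ptgs2* with *Ptges* (0.42) and *Il11* with *Ptges* (0.41), and *Il6* with *Il11* was at 0.15. At d1, 21 pairs over 40 cells ran from -0.11 to 0.39, and *Ptgs2* with *Ptges* was at -0.11. These cells differ in depth and may share libraries. At d12, rho with the depth of the cell was 0.27 for *Il6*, 0.25 for *Ptges* and 0.12 for *Ptgs2*.

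Only 51 of the 96 colony cells of day 12 passed the filter on detected genes, and none of those kept had a running number between 24 and 49. The kept cells fell into ranges of running numbers that differed in most of these genes, and these ranges do not stand for all d12c cells. In 21 d12c cells numbered 1 to 24 the mean was 632.5 CPM for *Ptges*, 137 for *Ptgs2*, 123 for *Il11*, 66.7 for *Il6*, 55.4 for *Csf1* and 64.7 for *Il33*. A single cell gave 71.1% of the sum of *Il33*, 66.2% of that of *Il11* and 64.2% of that of *Ptgs2*, and the means without it were 19.6, 43.6 and 51.4 CPM, with medians over all 21 cells of 0, 11.2 and 24.7 CPM. In 30 cells numbered 49 to 96 it was 38.5 CPM for *Ptges*, 7.11 for *Ptgs2*, 8.04 for *Csf1* and 2.27 for *Il33*, and *Il6*, *Il11* and *Saa3* had no UMI. No UMI in 30 cells allows a share of up to 10.0%. Against the floor there, the pooled level of *Il6* was at least 475-fold below that at d12 and that of *Il11* at least 662-fold. These bounds cover counting error only and not the spread between cells. *Lif* was the exception, with 13.8 and 10.2 CPM in the lower and higher numbers, or 6.24 CPM in the lower ones without the highest cell.

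Fibroblast and XEN markers moved with these ranges. The summed level of 10 fibroblast markers had a mean of 7633 CPM (777 to 28150) in d12c cells numbered 1 to 24 and 161 CPM (0 to 2588) in those numbered 49 to 96, while 10 XEN markers had means of 425 CPM (9.76 to 2223) and 1198 CPM (185 to 2564). All 10 markers of both lists were detected in both ranges. Over the 51 d12c cells, rho with the fibroblast sum was 0.88 for *Ptges*, 0.82 for *Saa3*, 0.77 for *Il6*, 0.76 for *Il11* and 0.20 for *Lif*, and rho with the XEN sum was -0.71, -0.60, -0.59, -0.49 and 0.03 in the same order. If the number ranges stand for libraries, library and cell state cannot be told apart here. Within the 67 d12 cells rho with the fibroblast sum was 0.38 for *Ptges*, 0.27 for *Il6*, 0.25 for *Lif*, 0.11 for *Il11* and -0.13 for *Saa3*, and rho with the XEN sum was -0.22, -0.14, -0.18, 0.03 and 0.13 in the same order. *Saa3* thus had the other sign at d12, and *Il11* was near 0. *Ptgs2* stood at 0.31 and -0.39, *Csf1* at 0.02 and -0.18 and *Il33* at 0.09 and 0.30.

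Colony cells of day 8 were set against unpicked d8 cells. Of 8 genes compared, *Csf1* was lower past 1 (-1.98, 41.3 against 6.83 CPM) and none was higher, where 20.6% of all genes passed 1, 4.59% higher and 16% lower. The median over the 8 genes was -0.38 and that over all genes compared -0.30. Mean CPM of *Ptgs2* was higher in d8c (60.6 against 12.2), but without 1 cell of 1093 CPM it was 6.27.

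The end point was compared as d20 minus d12. Of 8 genes compared, 7 were lower past 1 and none was higher, against 51.4% of all genes past 1, 20.5% higher and 30.9% lower. *Ptges* differed by -9.08, *Ptgs2* by -6.59, *Csf1* by -6.28, *Il11* by -5.46, *Il6* by -4.47, *Saa3* by -4.29 and *Lif* by -1.51, and *Il33* by -0.80. Mean CPM was 426-fold lower for *Ptges*, 105.5-fold lower for *Csf1* and 1.88-fold lower for *Lif*. For *Lif* the call was lost after thinning (-0.66), with a pseudocount of 10 (-0.57), with values under 20 CPM set to 0 (-0.86) and with log2 of the mean CPM (-0.87). The median over the 8 genes was -4.96, against -0.20 over all genes compared. The sum of 10 fibroblast markers had a mean of 72.1 CPM (0 to 919.5) at d20, with 3 markers at 0, against 12800 CPM (667 to 56850) at d12, and d20 cells were shallower. The parts of the change in cell type and of depth in these differences were not tested. The comparisons share cells, since d0 enters 2 of them, d8 enters 3 and d12 enters 2, and are not independent of one another.

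Receptors and further ligands of the IL-6 family were followed through a list of 9 genes. Between d8 and d12, 3 were higher and 1 was lower among 6 compared, namely the ligand *Clcf1* (1.98), the IL-6 receptor *Il6ra* (1.74, 22.9 to 51.8 CPM), the oncostatin M receptor *Osmr* (1.15) and the LIF receptor *Lifr* (-1.62, 86.4 to 30.2 CPM). The median over the 6 genes was 0.50, and all genes compared had shares of 14.2% higher and 14.6% lower and a median of -0.13. At d20, where 30.9% of all genes were lower, 5 were lower and *Lifr* was higher than at d12 (1.53). *Lif* itself differed by -1.51, and whether the same d20 cells held *Lif* and *Lifr* was not tested. On the first day *Il6st*, which encodes gp130, was lower (-1.97, 34.8 to 5.18 CPM) and *Clcf1* higher (1.12).

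Of 8 alarmin and colony-stimulating ligands and receptors, 4 of 6 compared were higher at d12 than at d8, against 14.2% of all genes, with a median over the 6 of 1.06. The IL-33 receptor *Il1rl1* went from 3.07 to 528 CPM (6.69), and it had stood at 140 CPM at d0. *Csf3*, which encodes granulocyte colony-stimulating factor, was at 0 at d8 and 18.3 CPM at d12 (1.61), and the CSF1 receptor ligand *Il34* differed by 1.08. All 6 were lower at d20 than at d12, against 30.9% of all genes, and *Il1rl1* had no UMI there.

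Of 16 further prostaglandin genes, 5 were higher and 1 was lower between d8 and d12 among 9 compared, against 14.2% and 14.6% of all genes, with a median over the 9 of 1.01. The prostacyclin receptor *Ptgir* differed by 4.99 (4.33 to 146 CPM), cyclooxygenase 1, *Ptgs1*, by 2.12 and the prostaglandin E2 receptor *Ptger2* by 1.29. Another receptor of prostaglandin E2, *Ptger4*, went the other way (-2.37, 27.5 to 1.88 CPM). At d20, 5 of 9 were lower, against 30.9% of all genes, and the receptor *Ptger3* was higher (1.27).

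Genes of NF-kB and IL-1 signalling were higher in 10 of 12 compared, out of 18 on the list, and lower in none between d8 and d12, against 14.2% and 14.6% of all genes, with a median over the 12 of 1.58. *Tnfaip2* differed by 3.91, the NF-kB inhibitor *Tnfaip3* by 2.81 and the IL-1 receptor *Il1r1* by 2.64. Of 10 STAT3 and C/EBP genes, 5 of 9 compared were higher and none was lower, with a median over the 9 of 1.55, led by the feedback inhibitor *Socs3* (2.98, 47.2 to 252 CPM), *Cebpb* (2.45) and the kinase *Pim1* (2.01). At d20 the counts lower than d12 were 11 of 12 and 8 of 9, against 30.9% of all genes. On the first day, when 19.3% of all genes were higher and 4.57% lower, 5 of 12 NF-kB and IL-1 genes were higher, led by *Tnfaip2* (2.57), *Il1r1* (1.63) and the IL-1 receptor antagonist *Il1rn* (1.28), and *Icam1* was lower (-1.86), while *Socs3* (1.41), *Socs1* (1.27) and *Bcl3* (1.18) were higher in the STAT3 list.

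The other acute phase genes were mostly low. Of 12 on the list, 3 could be compared between d8 and d12 and none passed 1, against 14.2% of all genes higher and 14.6% lower. The median over the 3 was 0.61, and so few genes give little to set against these shares. All 3 compared were lower at d20 than at d12, against 30.9% of all genes. On the first day 1 could be compared and was lower, against 4.57% of all genes. *Saa1*, *Orm1* and *Lrg1* had no UMI at d8 or d12, and *Saa2* had 81 UMIs at d8 and none at d12. Among immune cell markers, *Cd14* (2.11, 9.99 to 48.5 CPM) and *Cd68* (1.66, 0.882 to 17.9 CPM), which other cells also express, were higher at d12, and the sum of the 11 markers had a mean of 66.5 CPM (0 to 519.5) against 12.4 CPM (0 to 290).

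**Figure D5:**
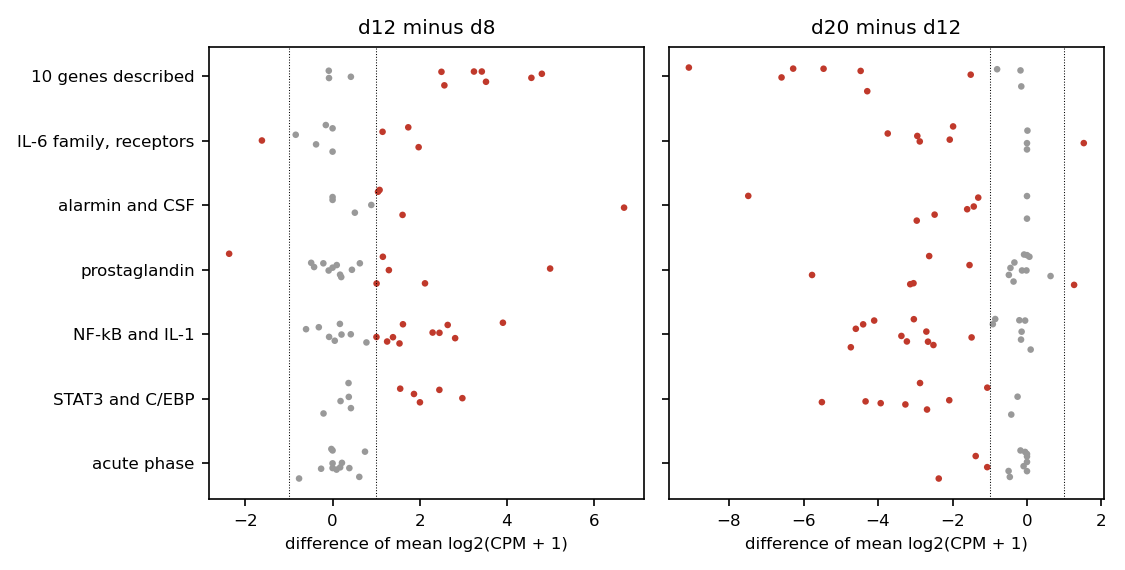
Differences of mean log2(CPM + 1) for d12 minus d8 and d20 minus d12; each point is a gene of the 10 described or of a pathway list, red points passed the floor and 1 in size, grey points did not, and dotted lines stand at 1 and -1. In the first panel 7 of the 10 genes lie to the right of 1, and NF-kB and IL-1 genes have 10 points there, while in the second panel 7 of the 10 genes lie to the left of -1.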

How the data were processed

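Single cells of the C6FAE course were measured by RNA sequencing. Per the labels, the authors assigned reads to cells by barcode and, after trimming, mapped them to the mm9 transcriptome and collapsed UMI duplicates. The aligner is not given in the sources used here. The deposited values are whole-number counts of UMIs per gene and cell, without scaling. All 5 counts of 100000 or more are multiples of 1000, and 4 entries with duplicated names were left out. The table also lists 92 ERCC spike-in RNAs, which were left out of the cell totals.

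A minimum of 4000 detected genes left 670 of 808 cells. The largest losses were in d12c, which went from 96 cells to 51, and in d20, which went from 72 to 38. CPM, means and log2 values with a pseudocount of 1 were computed from the counts. Because cells could not be assigned to batches, no count test was run, and differences past 1 over genes with a mean log2 of at least 1 were counted instead. Shares were also computed after thinning to 50000 UMIs, which 23 kept cells did not reach. The 10 genes, the pathway lists, the limit of 100 CPM and the number ranges were chosen with earlier results of these data known. All 10 genes are named, and from each list at most the 3 largest called differences in each direction, while *Lrg1*, *Saa1*, *Saa2*, *Orm1* and the immune markers at 0 were added after their values were seen. The 3 genes most like each gene were named by Pearson's r over group means. On simulated data for d1 minus d0 (40 and 72 cells, 10783 genes), all 200 genes changed 8-fold were recovered and 3 unchanged genes were called. Only genes above a set d0 level were changed, and *Il6*, *Il11*, *Lif*, *Il33*, *Saa3* and *Lcn2* lay below that level. Smaller changes and single very high cells were not simulated, so these counts do not hold for such genes. Gene positions are from GENCODE M1, counted from 1, and promoters from RefSeq. Alternatives covered the cell filter, scaling, pseudocount, averaging, thinning, the floor, the number ranges and, added after seeing the data, low values and the highest cell. Scaling alternatives used DESeq2 1.42.0 and edgeR 4.0.16 in R 4.3.3. Everything else was computed in Python 3.11.15 (scipy 1.17.1, pandas 2.3.3, numpy 2.4.6).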

Additional observations from a re-analysis of the deposited data

Results flagged for a closer look

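The 138 cells left out for having fewer than 4000 detected genes were not used in any comparison, and 5 of the genes were found in more of them than the 3 cells that a count of 0 allows, with an interval above that limit. *Ptges* was found in 52 of these cells (37.7%, 29.6% to 46.3%), *Csf1* in 25 (18.1%), *Ptgs2* in 14 (10.1%), and *Lif* and *Saa3* in 11 each (7.97%).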

How the results depend on the processing

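Of 600 differences of the 10 genes under 12 alternatives, 569 stayed called or not called as reported and 31 changed in this. None of the called ones changed sign, and the sign of those not called was not compared. With a pseudocount of 10, 519 genes were past 1 for d1 minus d0 (2253 as reported), 1066 for d8 minus d0 (2947), 843 for d12 minus d8 (2798), 2248 for d20 minus d12 (5009) and 422 for d8c minus d8 (1907), and of the 10 genes 3 were past 1 for d1 minus d0 and 1 for d8 minus d0. With log2 of the mean CPM + 1, 4663 genes were past 1 for d8 minus d0, 4493 for d12 minus d8 and 4438 for d8c minus d8, and 6 of the 10 genes for d8 minus d0 and 7 for d8c minus d8, since single high cells then weigh most. Under edgeR and DESeq2 scaling no difference of the 10 genes changed its call. The count of genes highest at d12 was 7 in every alternative tried for it. No paired analysis was possible because the cell names carry no batch or replicate number. At a median of 195480 UMIs, 1 UMI is worth several CPM at d20, so low levels of *Il6* or *Ptgs2* were not detectable there in single cells.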

Other observations

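Over the 12 group means of log2(CPM + 1), among 11303 genes whose mean reached 1 in some group, the pattern of *Il6* was most like that of *Lgals3bp* (Pearson's r 0.97), *Trf* (0.97) and *Ido2* (0.97), and that of *Il11* was most like *Egr3* (0.97), *Ptpn22* (0.97) and *Sh2d5* (0.96). *Ptgs2* was most like *Nipal1* (0.95), *Il11* (0.95) and *Ereg* (0.94), *Ptges* like *Ppp1r18* (0.97), *Angptl4* (0.96) and *Rbpj* (0.96), and *Saa3* like *Sprr1a* (0.97), *Ampd3* (0.97) and *Thbd* (0.96). *Csf1* was most like *Klf7* (0.93), *Aebp2* (0.92) and *Rhbdf1* (0.92), and *Lif* like *Epb41l4a* (0.96), *Arl4d* (0.95) and *Aqp3* (0.94). *Tslp* was most like *Anxa8* (0.98), *Ldlrad4* (0.97) and *Nfib* (0.96), with the d0 cells highest, and *Il33* like *Oasl1* (0.93), *Cmss1* (0.93) and *Plekha6* (0.91), with the d1 cells highest. The groups differ in depth, and whether they share libraries is not known. Leaving *Tslp* and *Il33* aside, all like genes but *Rhbdf1* (d0) and *Rbpj* (d2) had their highest group mean at d12. The part of the d12 mean alone in these values of r was not tested.

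At d4 the ranges of running numbers differed in opposite ways. *Il6* had a mean of 14.7 CPM in 40 cells numbered 1 to 48 and 0.292 CPM in 37 cells above 48, while *Ptgs2* had 4.62 and 42.1 CPM and *Ptges* 112.5 and 270 CPM. The median depth was 778217 UMIs in the lower numbers and 322066 in the higher ones, and its part in these values was not tested. At d0, *Saa3* was found in 24 of 43 cells numbered 1 to 48 and in 1 of 29 above 48, at median depths of 348193 and 340198 UMIs.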
